A study of Mus musculus with 16 samples.

Results

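The genes described here carry out the synthesis, uptake, transport and storage of cholesterol in the embryonic mouse adrenal gland. They are a list of 35 genes picked for their function, and each was read from its brightest probe set, as averaged over the 16 arrays. A usable probe set, one that carries a single gene symbol, was found for 32 of the 35, and all 32 were bright enough to be tested, among 13642 tested genes out of 18193 with a probe set. Acat2, Nr1h2 and Soat1 had no probe set with a single symbol in the annotation used here, and no value is given for them. The 32 were 18 enzymes of synthesis, 5 sterol sensors and regulators, the oxysterol receptor Nr1h3, 5 genes of uptake and intracellular transport, the efflux transporters Abca1 and Abcg1, and the ester lipase Lipe.

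Whole adrenal glands of C57BL/6 mouse embryos were measured on Affymetrix arrays of the Mouse430_2 type. The knockout (KO) glands at E15.5 and E16.5 carried an Sf1-Cre transgene and Dicer lox/lox alleles. The transgene deletes Dicer, the enzyme that releases mature microRNAs from their precursors, in cells where Sf1 is active, which include the steroid-making cortex but not all cells of the gland. The controls at E15.5 and E16.5, which the labels call WT, were littermates without Cre, and the matings also involved Dicer +/lox mice, so a control can carry floxed alleles. Glands of a genotype were pooled within a litter, 4 litters were used at each stage, and each of the 4 groups therefore had 4 arrays. Values are log2 signals, so that a difference of 1 is a 2-fold change, and levels of different genes are not compared because each probe set binds its target with its own strength.

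Cholesterol is built from acetyl-CoA through mevalonate, isoprenoids, squalene and lanosterol. When the membrane of the endoplasmic reticulum is poor in sterol, Scap carries the SREBP transcription factors, the products of Srebf1 and Srebf2, to the Golgi to be cut and activated, and they raise the enzymes of synthesis. The Insig proteins hold Scap back when sterol is plentiful, and LXR receptors answer to oxysterols by raising genes of cholesterol export. The adrenal cortex uses cholesterol as the raw material of all its steroids, takes much of it up from lipoproteins, in rodents largely through Scarb1, and stores it as esters in lipid droplets.

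The arrays were alike within groups, with Pearson correlations over all probe sets of 0.975 to 0.996. Control E16.5 replicate 2 stood apart by its control probe sets, with a 3′ minus 5′ signal of 3.15 against 0.19 to 1.62 in the other 15 arrays, a sign of shorter or partly degraded RNA. The mean signal was 6.35 to 6.37 in KO arrays and 6.30 to 6.32 in control arrays, and the median difference of all tested genes between genotypes was 0.07 at E15.5 and 0.08 at E16.5. Dicer1 read 8.24, 8.36, 8.0 and 8.34 in KO glands at E15.5 against 8.50, 8.63, 8.64 and 8.58 in controls, and 8.42, 8.30, 8.22 and 8.09 in KO glands at E16.5 against 8.45, 8.83, 8.60 and 8.59 in controls. Its KO values lay below the control values at both stages, with differences of −0.35 (SE 0.11, limma adjusted p = 0.0638) and −0.36 (SE 0.11, limma adjusted p = 0.0414). Where its probe set lies relative to the floxed exon was not looked up.

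Other cells of the gland moved with genotype. Against 3.69% and 6.99% of all tested genes, 8 and 14 of 15 macrophage markers were called higher in KO glands at E15.5 and E16.5. Their mean log2 signal was 8.29 to 8.77 in KO glands at E15.5 against 7.70 to 7.93 in controls, and 9.14 to 9.49 in KO glands at E16.5 against 7.95 to 8.49 in controls, without overlap at either stage. Of 10 steroidogenic cortex markers, 3 were called lower in KO glands at E15.5 and 6 at E16.5, against 2.18% and 3.56% of all genes. None of the 10 was called higher. The mean of the 10 was 11.87 to 12.30 in KO glands at E15.5 against 12.21 to 12.64 in controls, and 11.68 to 12.02 in KO glands at E16.5 against 12.23 to 12.63 in controls. Of 8 chromaffin markers tested, 3 were called higher in KO glands at E16.5 and none at E15.5, against 6.99% and 3.69% of all genes. Of 8 erythroid markers tested, 1 was called higher in KO glands at each stage. All 8 differences were positive at both stages, against 64.2% and 64.3% of all genes, with medians of 0.26 at E15.5 and 0.55 at E16.5. The mean of 7 liver markers varied between 6.13 and 10.65 over single arrays, with none called in any comparison. In such whole-gland RNA, fewer cells of a type and less RNA per cell cannot be told apart, and the part of these cell types in the values below was not tested.

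**Figure D1:**
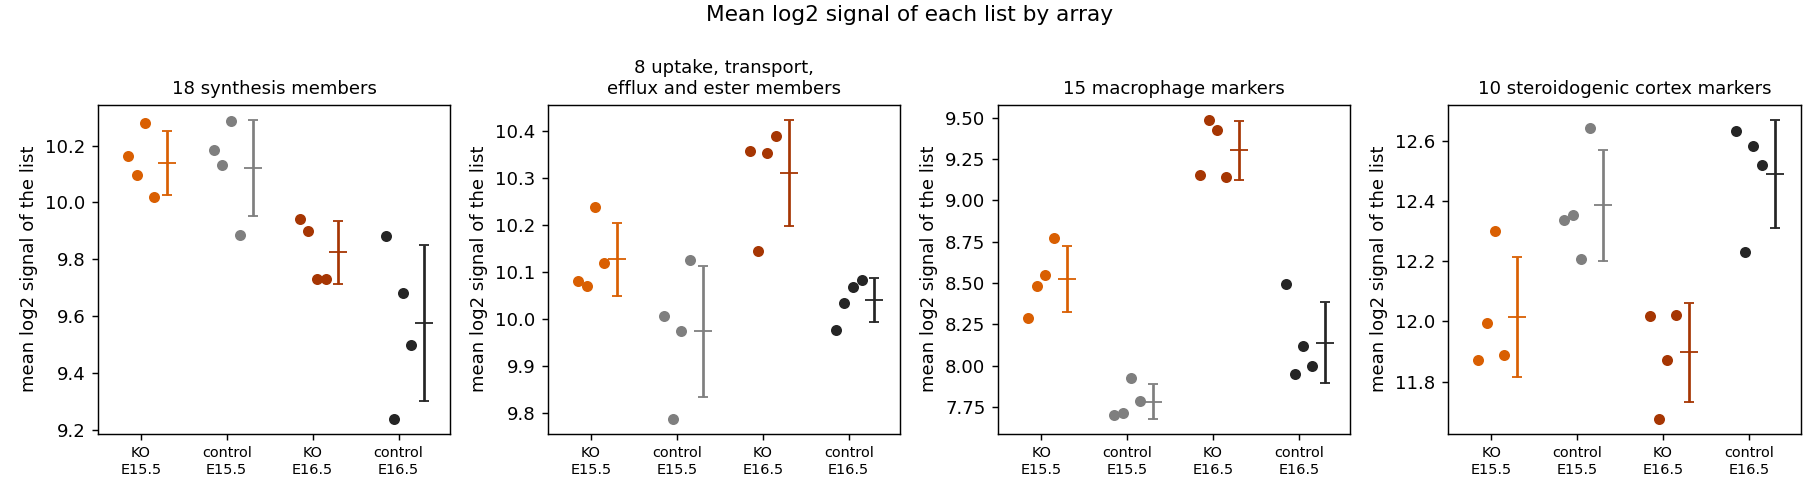
Mean log2 signal of 4 gene lists in each of the 16 arrays (vertical axis), by group along the horizontal axis, with KO left of control at each stage; points are arrays and bars the group mean ± SD (n = 4). The mean of the 18 synthesis genes lies lower in all E16.5 arrays than in all E15.5 arrays of each genotype. In controls the gap is narrow, 9.88 at most against 9.89 at least. The mean of the 8 transport, efflux and ester genes lies at 10.14 to 10.39 in KO glands at E16.5 and 9.98 to 10.08 in controls. Macrophage markers separate the genotypes at both stages.

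The first question was how loss of Dicer in Sf1 cells altered these genes. At E16.5, 7 of the 32 passed (21.9%), against 10.5% of all tested genes. Of these, 6 rose, against 6.99% of all genes, and 1 fell, against 3.56%. Those that rose were Hsd17b7, Npc1, Abcg1, Insig1, Fdft1 and Npc2, and Insig2 fell. At E15.5 Npc1 alone passed and rose, 1 of 32, against 5.86% of all tested genes called in either direction, 3.69% called higher and 2.18% called lower. All 4 KO arrays lay above all 4 control arrays for 7 genes at E16.5 and 2 at E15.5, against 10.4% and 9.79% of all genes, and below them for 1 and 2 genes, against 4.76% and 4.7%. With array quality weights the calls came to 17 at E16.5, 13 higher and 4 lower, and to 2 at E15.5. Those weights were 10.4 for control E16.5 replicate 3 and 0.64, 0.19 and 0.49 for replicates 1, 2 and 4 of its group. The share of all genes called with them is not given here. Of the fits that left out an array, the count at E16.5 was 4 without KO replicate 1 and 10 without control replicate 1. The median KO minus control difference of the 32 genes was 0.27 at E16.5, against 0.08 for all tested genes, and 0.07 at E15.5, against 0.07. In number, 24 of 32 genes had a positive difference at E16.5, against 64.3% of all genes, and 21 of 32 did at E15.5, against 64.2%.

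**Figure D2:**
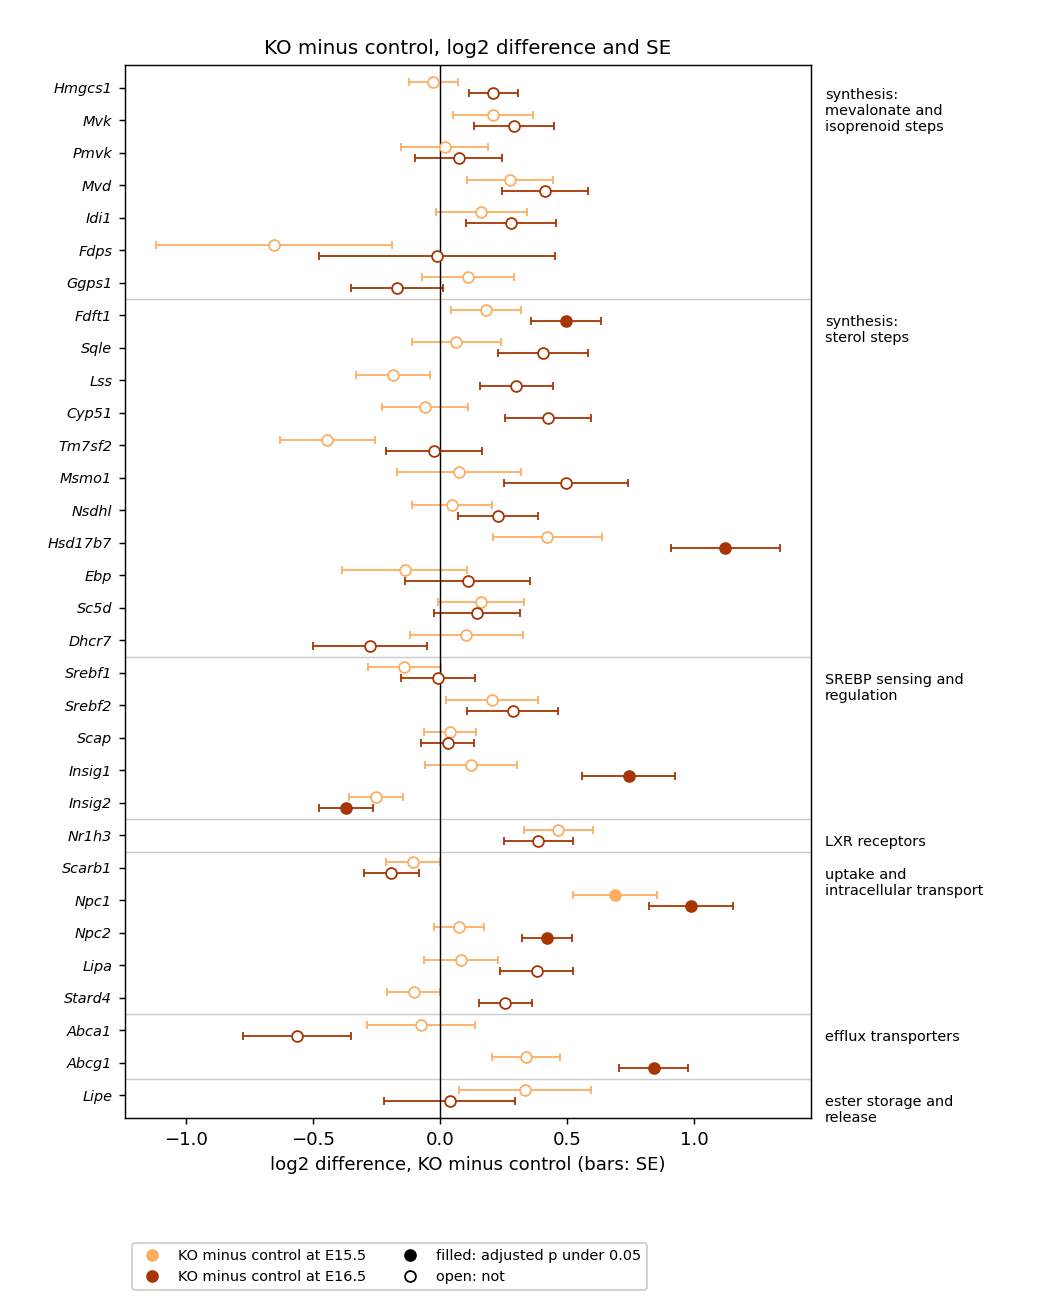
KO minus control difference in log2 signal (horizontal axis, bars are SE) of each of the 32 genes, grouped by role, at E15.5 (light) and E16.5 (dark); filled points had an adjusted p under 0.05. Filled points at E16.5 lie between −0.37 for Insig2 and 1.12 for Hsd17b7, and Npc1 is the gene filled at both stages.

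Of all tested genes, 6.99% were called higher and 3.56% lower in KO glands at E16.5, and 3.69% and 2.18% at E15.5. Among the 18 enzymes of synthesis, 2 rose in KO glands at E16.5, none fell, and none passed at E15.5. Both belong to the 11 sterol steps, and none of the 7 mevalonate and isoprenoid steps passed at either stage. The median difference of the 18 was 0.25 at E16.5 and 0.07 at E15.5, against 0.08 and 0.07 for all tested genes. Of the 18 differences 14 and 12 were positive, against 64.3% and 64.2% of all genes. Without control E16.5 replicate 2 the E16.5 median was 0.17, with 12 of 18 positive. At unadjusted p under 0.05, 6 of the 18 were higher in KO glands at E16.5 and none lower, against 16.8% and 7.25% of all genes. At E15.5 none of the 18 were higher and 1 was lower at that level, against 12.8% and 6.24%.

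Hsd17b7, the 3-ketosteroid reductase that acts in removing methyl groups from the lanosterol ring and that can also reduce estrone, had the largest rise of the 32. It read 10.42, 10.28, 9.96 and 9.90 in KO glands at E16.5, against 9.20, 9.49, 8.83 and 8.55 in controls. Every KO array lay above every control array, by 1.12 on average (SE 0.21, limma adjusted p = 0.0028), a 2.18-fold rise. Readings at E15.5 were 10.27, 10.35, 9.87 and 9.73 in KO glands against 9.68, 9.77, 9.95 and 9.14 in controls. There the groups overlapped, and the difference of 0.42 (SE 0.21, limma adjusted p = 0.31) did not pass. Its lowest readings in the series, 8.55 and 8.83, were from control arrays at E16.5. The kept probe set is of a type that Affymetrix marks as open to cross-hybridisation, but a pair of other probe sets gave 0.92 and 0.79 at E16.5. With every probe set tested by itself, a choice made after seeing the data, the first of these also passed at E15.5, at 0.67 (SE 0.14, limma adjusted p = 0.0103).

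Fdft1, squalene synthase, which joins farnesyl units at the entry to the sterol branch, read 11.21, 11.30, 10.99 and 11.08 in KO glands at E16.5, against 10.83, 10.60, 10.73 and 10.44 in controls. The groups did not overlap, and the rise of 0.49 (SE 0.14, limma adjusted p = 0.0315) passed. At E15.5 the values were 11.31, 11.24, 11.06 and 11.21 in KO glands against 11.10, 11.12, 11.32 and 10.57 in controls, a difference of 0.18 that did not pass. The call ended when KO replicate 1, 2 or 4 or control replicate 2, 3 or 4 was left out (limma adjusted p up to 0.0861). It also ended with quantile normalization, 75th-percentile centring, the mean of its probe sets or a block for replicate numbers. The other 3 probe sets, none of which passed, gave −0.37, 0.12 and 0.64.

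Sqle, squalene epoxidase, a rate-limiting step after squalene, read 10.73, 10.60, 10.50 and 10.65 in KO glands at E16.5, against 10.57, 9.55, 10.35 and 10.38 in controls. The control spread came mostly from replicate 2, the array that stood apart, and the KO arrays overlapped with control replicate 1. The difference of 0.41 (SE 0.18, limma adjusted p = 0.169) did not pass, and it was 0.18 without that array, while with array quality weights it passed. At E15.5 Sqle read 11.24, 10.89, 11.16 and 10.69 in KO glands against 10.93, 10.82, 11.04 and 10.94 in controls, a difference of 0.06.

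The other enzymes of synthesis did not pass between genotypes at either stage. At E16.5 the largest differences among them were 0.50 for Msmo1, the sterol C4-methyl oxidase (SE 0.24, limma adjusted p = 0.23), 0.43 for Cyp51, the lanosterol demethylase (SE 0.17, limma adjusted p = 0.128), and 0.41 for Mvd, mevalonate diphosphate decarboxylase (SE 0.17, limma adjusted p = 0.142). Hmgcs1, which makes the precursor of mevalonate, differed by 0.21 and Lss, lanosterol synthase, by 0.30. Idi1, Mvk, Nsdhl, Sc5d, Ebp and Pmvk lay between 0.07 and 0.29. A pair of other Lss probe sets gave −0.16 and −0.02, and the other Mvk probe set gave −0.21. Every other probe set of Msmo1, Cyp51, Mvd, Hmgcs1 and Idi1 was positive. Dhcr7, the last reductase before cholesterol, Ggps1, which makes geranylgeranyl diphosphate for proteins, Tm7sf2, a sterol C14 reductase, and Fdps, farnesyl diphosphate synthase, had differences of −0.28, −0.17, −0.02 and −0.01. Fdps had the widest error of the list (SE 0.46), because its control arrays ran between 8.88 and 12.07 at E16.5. The 8.88 was read in control E16.5 replicate 2, the array that stood apart, and without it the Fdps difference was −0.68 (SE 0.25, limma adjusted p = 0.0873). Without that array Msmo1 differed by 0.19, Cyp51 by 0.26, Idi1 by 0.15 and Nsdhl by 0.11, and Ebp (−0.21) and Sc5d (−0.02) changed sign.

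Among the 5 sterol sensors and regulators at E16.5, 1 rose and 1 fell, against 6.99% and 3.56% of all tested genes. Insig1, the retention protein of Scap whose own gene is a target of SREBP, read 10.25, 9.92, 9.75 and 9.69 in KO glands at E16.5, against 9.24, 9.43, 9.16 and 8.81 in controls. All KO arrays lay above all control arrays, and the rise was 0.74 (SE 0.18, limma adjusted p = 0.0153), or 1.67-fold. A day earlier it read 10.18, 9.94, 10.27 and 9.64 in KO glands against 10.04, 9.79, 10.21 and 9.50 in controls. Those groups overlapped almost wholly, with a difference of 0.12. The E16.5 call was lost without KO replicate 1 (limma adjusted p = 0.0528) and with 75th-percentile centring (limma adjusted p = 0.0506).

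Insig2, the second retention protein, whose gene is known not to be raised by SREBP, moved the other way. It read 8.65, 8.72, 8.88 and 8.79 in KO glands at E16.5, against 9.01, 8.99, 9.15 and 9.37 in controls, and it fell by 0.37 on the log2 scale (SE 0.11, limma adjusted p = 0.0353) without overlap. A day earlier the readings were 8.79, 8.49, 8.44 and 8.78 in KO glands against 8.84, 8.87, 8.92 and 8.88 in controls, also without overlap, but the difference of −0.25 did not pass (SE 0.11, limma adjusted p = 0.2). Leaving out KO replicate 1, 2 or 4 or control replicate 3 or 4 ended the E16.5 call (limma adjusted p up to 0.0967). So did allowing for a genotype offset of 0.0529 that dim genes showed, the mean of its probe sets, a fit of the E16.5 arrays alone and a block for replicate numbers.

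Srebf2, the SREBP that acts mainly on cholesterol genes, read 8.60, 8.29, 8.42 and 8.43 in KO glands at E16.5, against 8.29, 8.17, 8.23 and 7.90 in controls, a difference of 0.29 (SE 0.18, limma adjusted p = 0.366). At E15.5 it read 8.66, 8.55, 9.36 and 8.52 in KO glands against 8.68, 8.12, 8.83 and 8.64 in controls, a difference of 0.20 with wide overlap. Srebf1, the SREBP that acts mainly on fatty acid genes, and Scap differed by −0.01 and 0.03 at E16.5. A second Scap probe set went the other way, at −0.39 at E16.5 and −0.33 at E15.5, both at limma unadjusted p under 0.05. Nr1h3, the LXR alpha receptor, read 5.94, 6.05, 6.13 and 6.05 in KO glands at E15.5, against 5.76, 5.67, 5.20 and 5.69 in controls. Its difference of 0.46 (SE 0.14, limma adjusted p = 0.0543) did not pass, nor did that of 0.39 at E16.5 (SE 0.14, limma adjusted p = 0.083), although the E16.5 difference passed without control E16.5 replicate 2, at 0.46 (limma adjusted p = 0.0388). The E15.5 difference passed without that array too (limma adjusted p = 0.0372), and also with no filter on dim genes, with array quality weights and, although Nr1h3 has 1 probe set, when genes were averaged over their probe sets.

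The 250 bases before the start of Insig1, Hsd17b7, Lss and Tm7sf2 are shown because these are the gene of the Scap anchor and the enzymes of synthesis that passed in a comparison and have an entry in the RefSeq promoter table, build GRCm38.p6. Capitals mark CCAAT or its complement ATTGG, the box bound by NF-Y, a known partner of SREBP, and a stretch of 14 bases, GTCACGTGGCTCCG, which contains the E-box CACGTG and stands in both Insig1 and Hsd17b7. The windows lie at chr5:28071162-28071411 on the plus strand for Insig1, chr1:169969206-169969455 on the minus strand for Hsd17b7, chr10:76531355-76531604 on the plus strand for Lss and chr19:6067851-6068100 on the minus strand for Tm7sf2. Each is printed along the direction of transcription.
Insig1: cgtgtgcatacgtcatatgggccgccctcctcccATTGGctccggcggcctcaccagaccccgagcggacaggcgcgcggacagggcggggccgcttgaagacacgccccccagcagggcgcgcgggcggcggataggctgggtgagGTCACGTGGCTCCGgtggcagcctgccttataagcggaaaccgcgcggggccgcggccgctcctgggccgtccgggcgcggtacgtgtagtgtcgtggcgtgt
Hsd17b7: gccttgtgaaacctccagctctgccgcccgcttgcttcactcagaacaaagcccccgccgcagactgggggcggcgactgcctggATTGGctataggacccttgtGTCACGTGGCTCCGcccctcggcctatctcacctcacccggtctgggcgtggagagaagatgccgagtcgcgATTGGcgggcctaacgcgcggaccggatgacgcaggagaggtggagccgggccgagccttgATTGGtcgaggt
Lss: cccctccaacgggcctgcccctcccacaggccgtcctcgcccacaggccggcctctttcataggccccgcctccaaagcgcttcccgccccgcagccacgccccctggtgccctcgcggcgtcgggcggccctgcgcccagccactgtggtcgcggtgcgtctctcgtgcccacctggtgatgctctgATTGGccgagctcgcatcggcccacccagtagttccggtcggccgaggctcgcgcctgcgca
Tm7sf2: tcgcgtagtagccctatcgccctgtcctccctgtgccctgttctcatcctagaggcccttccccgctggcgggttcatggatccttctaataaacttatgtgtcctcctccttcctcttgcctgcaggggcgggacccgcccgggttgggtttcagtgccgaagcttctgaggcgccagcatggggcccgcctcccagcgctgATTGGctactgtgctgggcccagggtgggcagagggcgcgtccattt

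The shared stretch begins 103 bases before the start in Insig1 and 145 bases before it in Hsd17b7. It was noticed by comparing these windows and is the longest run they share. Searched on both strands, it is in 4 of the 32851 windows of this length in the table (0.0122%), those of 3110045C21Rik, Hnrnpd, Hsd17b7 and Insig1. Its presence in Insig1 and Hsd17b7 was fixed by how it was chosen, so this share carries no weight for them. A window was found for 28 of the 35 genes, and none for Fdps, Fdft1, Sqle, Scarb1, Npc1, Stard4 and Abcg1. CCAAT on either strand is in the windows of 22 of the 28, against 37.5% of all genes with a window. CACGTG is in 7 of the 28, against 6.86% of genes, and TCACNCCAC, the letters of a classic sterol regulatory element, is in 1 of the 28, Hmgcs1, against 1.22%. These are matches of letters and not binding sites.

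Of the 5 genes of uptake and intracellular transport, 2 rose in KO glands at E16.5 and 1 at E15.5, against 6.99% and 3.69% of all tested genes. None of the 5 fell. Npc1, the membrane protein that releases cholesterol from lysosomes, was the gene that passed at both stages. It read 8.55, 8.69, 8.62 and 8.84 in KO glands at E15.5, against 7.97, 7.84, 8.05 and 8.10 in controls. At E16.5 it read 8.97, 8.50, 9.10 and 9.15 in KO glands, against 7.73, 7.63, 7.99 and 8.43 in controls. No KO array overlapped with a control array of its stage, and the rises were 0.69 (SE 0.17, limma adjusted p = 0.0193) and 0.99 (SE 0.17, limma adjusted p = 0.000958), or 1.61-fold and 1.98-fold. The E16.5 call held in all 8 fits that left out an array and in all 10 alternatives tried. The E15.5 call was lost without KO replicate 4, control replicate 1 or control replicate 2, with differences of 0.63 to 0.73 over the 8 fits and limma adjusted p up to 0.0654.

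Npc2, the soluble lysosomal protein that hands cholesterol to Npc1, read 12.18, 12.33, 12.31 and 12.33 in KO glands at E16.5, against 11.94, 11.80, 12.05 and 11.66 in controls. All KO arrays were higher, by 0.42 (SE 0.10, limma adjusted p = 0.0118). The E15.5 readings were 12.11, 12.13, 11.93 and 12.15 in KO glands against 11.87 to 12.14 in controls, with overlap and a difference of 0.07. The E16.5 call held in all 8 fits that left out an array. It was lost with 75th-percentile centring (0.33), with the mean of its probe sets (0.28) and in a fit of the E16.5 arrays alone (0.42), with limma adjusted p up to 0.085. A pair of other Npc2 probe sets gave 0.30 and 0.19 and did not pass.

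Lipa, the lysosomal acid lipase that frees cholesterol from lipoprotein esters, read 10.82, 10.81, 10.68 and 10.60 in KO glands at E16.5, against 10.30, 10.69, 10.38 and 10.02 in controls. Control replicate 2 reached into the KO range, and the difference of 0.38 (SE 0.15, limma adjusted p = 0.114) did not pass. Without that array, the one that stood apart, it was 0.49 and passed (limma adjusted p = 0.03). A pair of other Lipa probe sets gave 0.89 and 0.66 at E16.5, and −0.19 and 0.70 at E15.5. Npc1, Npc2 and Lipa are also used by macrophages, whose markers were higher in KO glands. The part of macrophages in these differences was not tested.

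Scarb1, the receptor that takes up cholesterol esters from high-density lipoprotein and the main entry of cholesterol into the rodent cortex, did not separate the genotypes. It read 14.04, 13.60, 13.75 and 13.92 in KO glands at E16.5, against 13.88, 14.11, 13.98 and 14.11 in controls, a difference of −0.19 (SE 0.11, 95% interval −0.42 to 0.03, limma adjusted p = 0.297). Scarb1 at E15.5 read 13.90, 13.91, 13.76 and 13.65 in KO glands against 13.91, 13.81, 13.87 and 14.05 in controls, a difference of −0.11. A pair of other Scarb1 probe sets was also negative, at −0.29 to −0.18 at E16.5 and −0.13 to −0.07 at E15.5. Stard4, a cytosolic carrier of cholesterol and a known target of SREBP, read 9.35, 9.18, 9.01 and 9.02 in KO glands at E16.5, against 9.00, 8.89, 8.82 and 8.83 in controls. Its groups did not overlap, yet the difference of 0.26 (SE 0.10, limma adjusted p = 0.137) did not pass.

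The efflux transporters differed from each other. Abcg1, which passes cholesterol to high-density lipoprotein and is known as an LXR target, read 8.74, 8.93, 9.29 and 9.31 in KO glands at E16.5, against 7.98, 8.31, 8.38 and 8.23 in controls. It rose by 0.84 (SE 0.13, limma adjusted p = 0.000653), or 1.79-fold, without overlap, the smallest p of the 32 genes, and the call held in all 8 fits that left out an array and all 10 alternatives. At E15.5 it read 8.35, 8.23, 8.37 and 8.48 in KO glands against 7.99, 7.86, 7.98 and 8.24 in controls, a difference of 0.34 that did not pass (SE 0.13, limma adjusted p = 0.17). A second Abcg1 probe set gave 0.27 at E16.5 and did not pass, and over the settings tried the difference was between 0.55 and 0.85. Abcg1 is also used by macrophages, and their part here was not tested.

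Abca1, which loads cholesterol on apolipoprotein A-I and is likewise an LXR target, read 11.43, 10.91, 11.59 and 11.36 in KO glands at E16.5, against 11.36, 12.23, 11.68 and 12.28 in controls. Control replicates 2 and 4 were high, and the difference of −0.56 (SE 0.21, limma adjusted p = 0.107) did not pass, except without control replicate 1, where it was −0.74 (limma adjusted p = 0.0358). At E15.5 it read 11.33, 10.93, 11.30 and 11.25 in KO glands against 11.31, 11.08, 10.97 and 11.74 in controls, a difference of −0.07. Both transporters are known in mouse as targets of miR-33, a microRNA whose hairpin lies inside Srebf2 and whose maturation needs Dicer. Its mature 5p form from RefSeq, at chr15:82198127-82198147 on the plus strand of GRCm38.p6, is printed with its seed, bases 2 to 8, in capitals.
mmu-miR-33-5p: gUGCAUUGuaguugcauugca

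Mature microRNAs were not analysed here, and the part of miR-33 in the levels of Abca1 and Abcg1 was not tested. Lipe, the hormone-sensitive lipase that releases cholesterol from droplets in the cortex, differed by 0.33 at E15.5 and 0.04 at E16.5 and did not pass. Over the 8 genes of uptake, transport, efflux and ester turnover, 3 rose and none fell in KO glands at E16.5, with a median difference of 0.32. The 18 enzymes of synthesis stood at 2 risen, none fallen and a median of 0.25. All tested genes stood at 6.99% risen, 3.56% fallen and a median of 0.08. The difference between the 8 genes and the 18 was not tested.

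**Figure D3:**
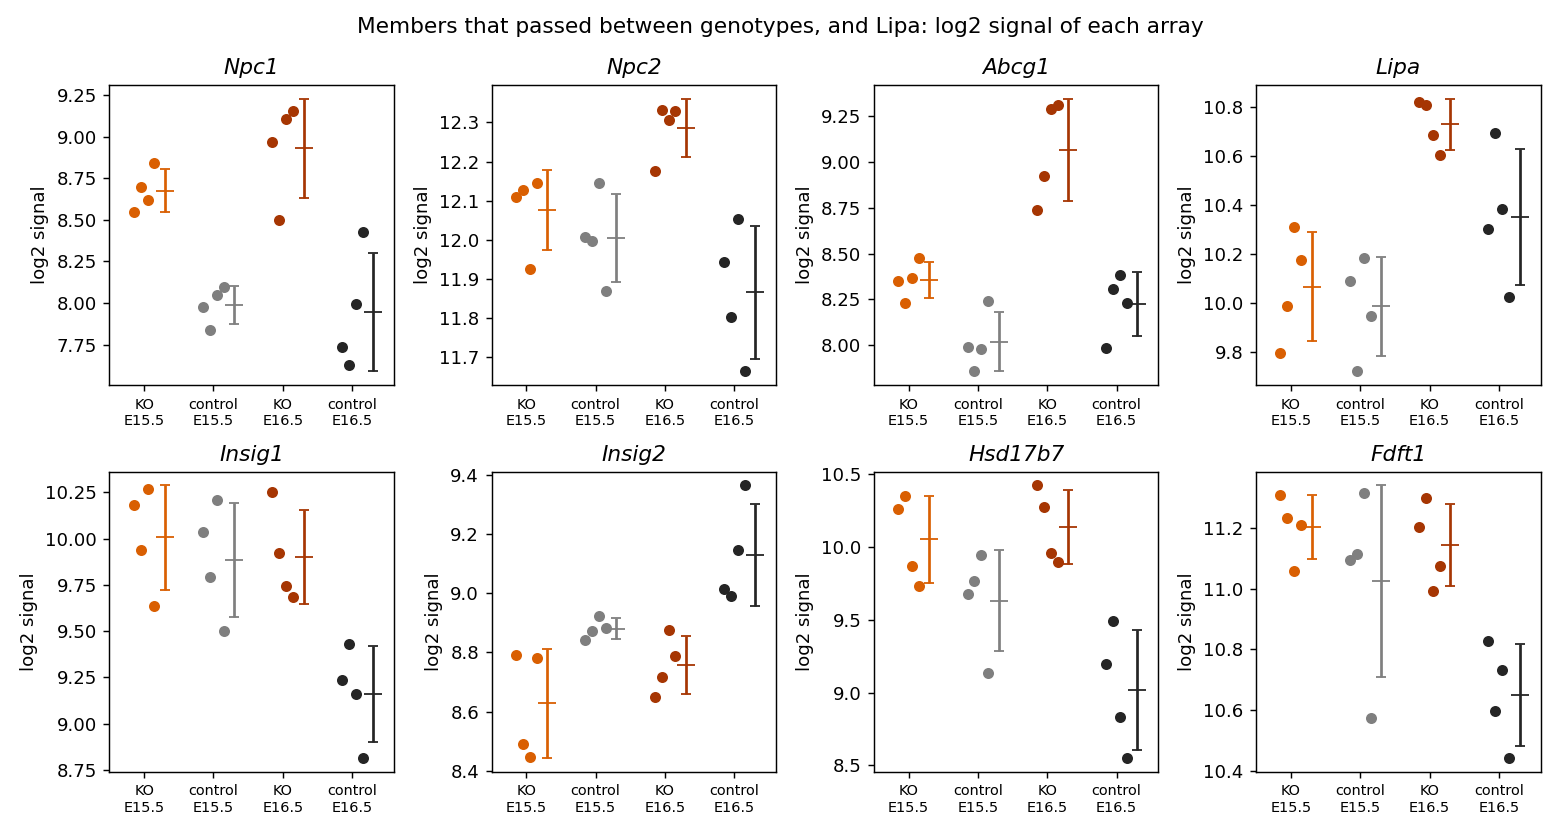
Log2 signal (vertical axis) of 8 genes in each array, by group along the horizontal axis with KO left of control at each stage; points are arrays and bars the group mean ± SD (n = 4). Npc1 (higher in KO glands) and Insig2 (lower) separate the genotypes at both stages, and Hsd17b7, Insig1, Fdft1, Npc2 and Abcg1 at E16.5.

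Other genes of the pathway were read from lists of its neighbours. Of all tested genes, 3.69% were called higher and 2.18% lower in KO glands at E15.5, and 6.99% and 3.56% at E16.5. Of 9 genes of SREBP processing and sterol-regulated protein turnover, 1 rose at each stage. This was Mylip, the LXR-induced ubiquitin ligase that sends lipoprotein receptors to degradation, at 1.05 at E15.5 (SE 0.16, limma adjusted p = 0.000812) and 1.27 at E16.5 (SE 0.16, limma adjusted p = 7.87e-05). It read between 9.61 and 10.21 in KO glands at E16.5 and between 8.46 and 8.75 in controls. Of 13 genes of sterol trafficking and lipid droplets, 2 rose at each stage. These were Plin2, the coat protein of lipid droplets (0.61 and 0.69), and Gramd1c, of the family that moves cholesterol between plasma membrane and endoplasmic reticulum (0.44 and 0.61). Of 6 lipoprotein receptors and ligands, none passed at E15.5, where limma gave 1 lower at unadjusted p under 0.05, and 2 rose at E16.5, lipoprotein lipase Lpl (0.56) and the apolipoprotein E receptor Lrp8 (0.50).

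Among 12 SREBP targets of fatty acid synthesis, 1 rose and 1 fell at E15.5, against 3.69% and 2.18% of all genes. At E16.5, 2 rose and 2 fell, against 6.99% and 3.56%. Negative differences numbered 9 of 12 at E15.5 and 10 of 12 at E16.5, against 4880 and 4873 of all 13642 genes. The medians were −0.14 and −0.21, against 0.07 and 0.08. Elovl6, which lengthens saturated fatty acids, rose by 0.74 (SE 0.11, limma adjusted p = 0.000549) and 0.99 (SE 0.11, limma adjusted p = 1.94e-05). Fads2, the first desaturase of polyunsaturated fatty acids, fell by 0.63 and by 0.78 on the log2 scale. At E16.5 Fasn, fatty acid synthase, rose by 0.49 and Elovl5 fell by 0.37. Of 6 genes of efflux and oxysterols and 6 users of isoprenoids, limma called 0 at either stage, and 0 reached an unadjusted p under 0.05.

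The second question was what changed over the day between E15.5 and E16.5 in each genotype. In control glands 2 of 32 genes passed, both lower, against 0.0953% of all tested genes called in either direction, 0.0513% called lower and 0.044% called higher. These were the synthesis enzymes Lss and Tm7sf2. In KO glands 2 of 32 passed, both higher, against 0.902% of all genes in either direction, 0.872% higher and 0.0293% lower, and these were Abcg1 and Lipa. The day contrasts share their arrays with the genotype contrasts above and are given side by side with them for that reason.

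Lss, which closes squalene epoxide to the first sterol, read 8.63, 8.44, 8.58 and 8.34 in control glands at E16.5, against 9.33, 9.32, 9.65 and 9.17 at E15.5. It fell by 0.87 on the log2 scale (SE 0.14, limma adjusted p = 0.0254) without overlap. In KO glands it read 9.08, 8.81, 8.62 and 8.69 at E16.5 against 9.18, 9.27, 9.47 and 8.81 at E15.5, with overlap, and the difference of −0.38 did not pass (SE 0.14, limma adjusted p = 0.344). A pair of other Lss probe sets gave −0.41 and −0.10 in controls and did not pass.

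Tm7sf2 read 8.20, 7.42, 7.99 and 7.21 in control glands at E16.5, against 8.80, 9.05, 8.65 and 8.54 at E15.5. It fell by 1.05 on the log2 scale (SE 0.19, limma adjusted p = 0.0427), or 2.07-fold, without overlap. In KO glands it read 7.90, 7.84, 7.52 and 7.48 at E16.5 against 8.35, 8.38, 8.42 and 8.10 at E15.5, again without overlap, but the difference of −0.63 did not pass (SE 0.19, limma adjusted p = 0.176). Between genotypes at E15.5 Tm7sf2 did not overlap either, with a difference of −0.44 that did not pass (SE 0.19, limma adjusted p = 0.203).

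Both control calls were lost without control E15.5 replicate 1, 2 or 3 and without control E16.5 replicate 2, 3 or 4, each of which left 0 of the 32 genes called, while 4 were called without control E16.5 replicate 1. Both were also lost when genes were averaged over their probe sets, although Tm7sf2 has 1, and in a fit of the control arrays alone. That of Tm7sf2 was lost too with quantile normalization, 75th-percentile centring, a stricter filter on dim genes or each probe set tested on its own. With array quality weights 18 of the 32 passed in controls, 14 lower and 4 higher, and 5 in KO glands. Those weights rest the control E16.5 mean largely on replicate 3, at 10.4 against 0.19 to 0.64 for the others. The share of all genes called with them is not given here. Beside the calls, the direction was shared widely among the 18 enzymes. In control glands 16 of 18 differences were negative, against 48.4% of all genes, with a median of −0.58 against 0.01, and without control E16.5 replicate 2 the 16 of 18 stood and the median was −0.47. In KO glands 16 of 18 were negative, against 48.3%, with a median of −0.39 against 0.01. At unadjusted p under 0.05, 14 of the 18 were lower in controls and 9 in KO glands, against 3.01% and 2.42% of all genes, and 1 and none were higher, against 4.84% and 7.09%. The 4 E16.5 arrays lay wholly below the 4 E15.5 arrays for 8 of the 18 in controls and 7 of the 18 in KO glands, against 1.68% and 2.24% of all genes. They lay wholly above for none of the 18, and among all 32 for Insig2 in controls and for Npc2, Lipa and Abcg1 in KO glands, against 2.31% and 5.53%.

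Among erythroid markers, embryonic globins fell over the same day. Of the 8 markers tested, limma called 2 lower in KO glands, against 0.0293% of all genes, the embryonic globins Hba-x (−2.58) and Hbb-y (−2.80). In controls it called 2 lower, Hbb-y (−3.71) and Hbb-bh1 (−1.82), against 0.0513%. The mean of the 8 markers was 7.47 to 7.94 in KO glands at E16.5 against 8.14 to 8.77 at E15.5, and 6.53 to 8.02 in controls at E16.5 against 7.91 to 8.41 at E15.5. Of the 8 differences, 5 were negative in KO glands and 6 in controls, against 48.3% and 48.4% of all genes. Their medians were −0.04 and −0.39, against 0.01 for all genes in both. The part of erythroid cells in the synthesis differences was not tested.

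The mean over the 18 enzymes was 9.73 to 9.94 in KO glands at E16.5 against 10.02 to 10.28 in KO glands at E15.5, without overlap. It was 9.24 to 9.88 in control glands at E16.5 against 9.89 to 10.29 in control glands at E15.5, also without overlap, and the lowest value was that of the array that stood apart. Among enzymes that did not pass, the differences in controls were −0.95 for Msmo1, −0.88 for Cyp51 (SE 0.17, limma adjusted p = 0.0761), −0.74 for Idi1, −0.72 for Sqle and −0.64 for Nsdhl. The same genes in KO glands had differences of −0.53, −0.40, −0.62, −0.37 and −0.46. Ggps1 (0.48 in controls and 0.20 in KO glands) went the other way in both, Dhcr7 (0.30) in controls and Hsd17b7 (0.08) in KO glands. Other probe sets did not bear out those of Hsd17b7 and Ggps1. A pair of other Hsd17b7 probe sets gave −0.21 to −0.17 in KO glands. The 3 other Ggps1 probe sets gave −0.12 to 0.02 in controls and −0.05 to 0.09 in KO glands, with 1 positive in each. Fdps differed by −1.25 in controls (SE 0.46), and by −0.59 without control E16.5 replicate 2.

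**Figure D4:**
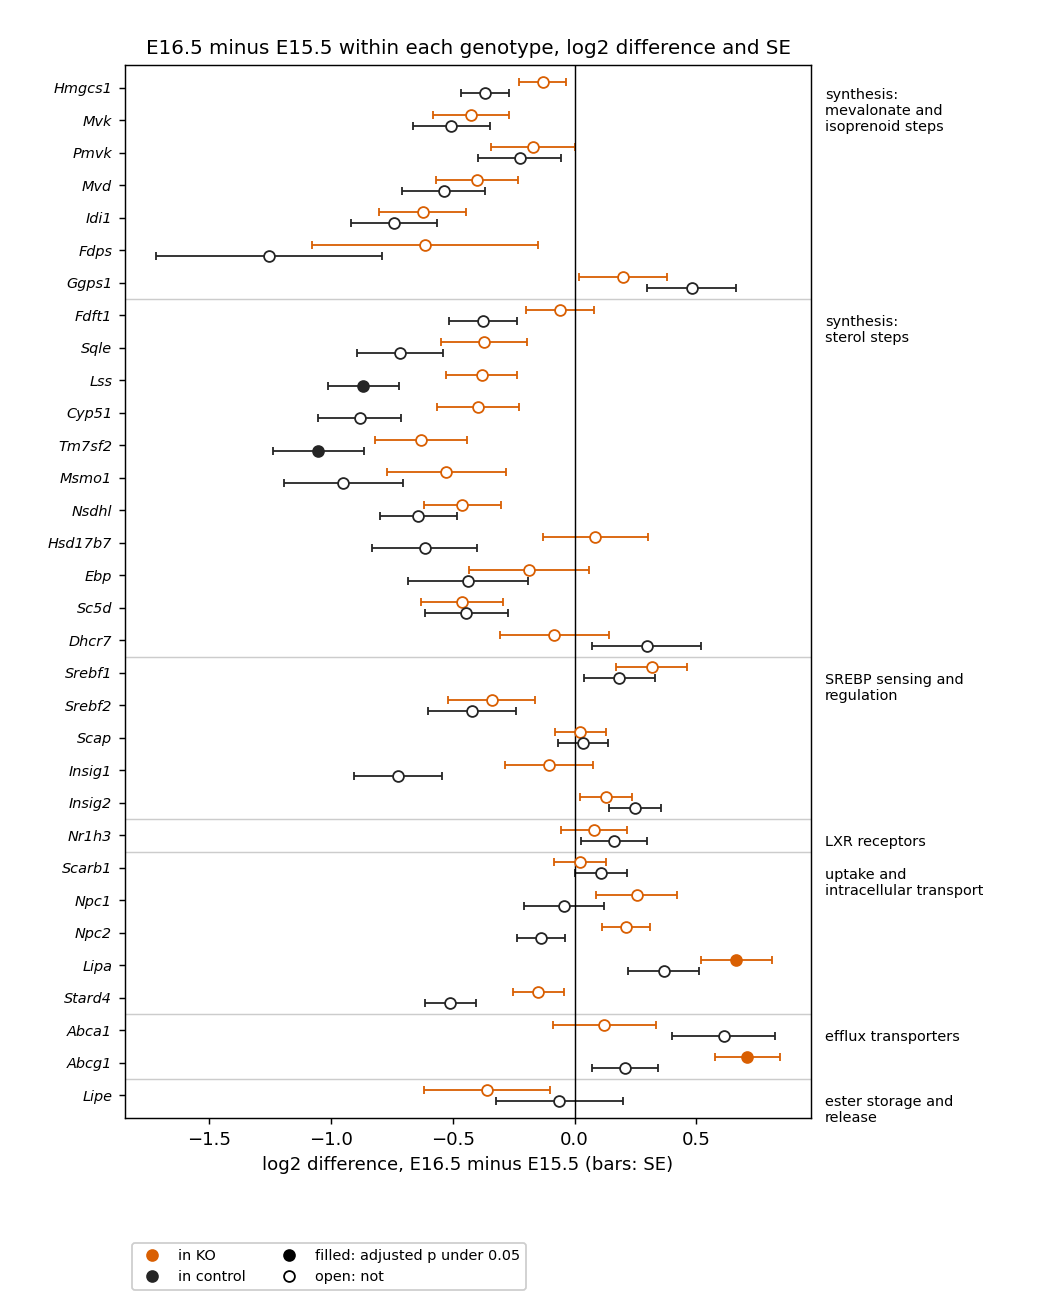
E16.5 minus E15.5 difference in log2 signal (horizontal axis, bars are SE) of each of the 32 genes, grouped by role, within KO glands and within control glands; filled points had an adjusted p under 0.05. Synthesis genes lie mostly left of 0 in both genotypes, with Lss and Tm7sf2 filled in controls, while Lipa and Abcg1 are filled right of 0 in KO glands.

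None of the 5 sterol sensors and regulators passed over the day in limma, with 1 higher and 2 lower in controls and 1 higher in KO glands at unadjusted p under 0.05. In controls 3 of the 5 differences were positive, those of Insig2 (0.25), Srebf1 (0.18) and Scap (0.03), and the median was 0.03. Insig1 differed by −0.72 in controls (SE 0.18, limma adjusted p = 0.162) and by −0.11 in KO glands. Stard4 differed by −0.51 in controls (SE 0.10, limma adjusted p = 0.103) and by −0.15 in KO glands. Srebf2 itself differed by −0.42 in controls and −0.34 in KO glands.

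Abcg1 and Lipa were the genes that rose over the day in KO glands. Abcg1, whose arrays are given above, did not overlap between stages in KO glands and rose by 0.71 (SE 0.13, limma adjusted p = 0.0164), while its difference in controls was 0.21. A second Abcg1 probe set gave 0.35 in KO glands and 0.25 in controls. Lipa read 10.82, 10.81, 10.68 and 10.60 in KO glands at E16.5, against 9.80, 9.98, 10.31 and 10.18 at E15.5. It rose by 0.66 (SE 0.15, limma adjusted p = 0.038) without overlap, and in controls, with 10.30, 10.69, 10.38 and 10.02 at E16.5 against 10.09, 9.72, 10.18 and 9.95 at E15.5, the difference of 0.37 did not pass. A pair of other Lipa probe sets gave 1.03 and 0.54 in KO glands, and −0.05 and 0.59 in controls. Over the same day 7 of 15 macrophage markers rose in KO glands, against 0.872% of all genes, as did lipoprotein lipase. In controls limma called none of the 15, with 7 higher at unadjusted p under 0.05, against 4.84% of all genes. The part of these markers in the rises of Abcg1 and Lipa was not tested. Both calls were lost without KO E15.5 replicate 1 or 2 or KO E16.5 replicate 3 or 4, and that of Lipa also without KO E15.5 replicate 4 or KO E16.5 replicate 1 or 2. A fit of the KO arrays alone ended both. That of Lipa also ended with quantile normalization, the mean of its probe sets, each probe set tested on its own or a block for replicate numbers.

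Whether the genotype effect itself differed between stages was tested as the difference of the KO effects. By limma 0 of the 32 genes and 0 of all 13642 (0%) passed, and with array quality weights 0 of the 32. At unadjusted p under 0.05, 6 of the 32 had a larger KO effect at E16.5 and none a smaller one, against 1.28% and 0.608% of all genes, and 23 of the 32 differences were above 0, against 52.2%. These were Hsd17b7, Insig1, Abcg1, Lss, Npc2 and Stard4, with differences of KO effects of 0.70 (SE 0.30), 0.62 (SE 0.26), 0.50 (SE 0.19), 0.49 (SE 0.20), 0.35 (SE 0.14) and 0.36 (SE 0.15). The adjusted p of each was 0.9999. Other probe sets gave 0.25 to 0.44 for Hsd17b7, 0.10 for Abcg1 and 0.15 to 0.36 for Lss. For Npc2 they gave −0.01 to 0.23 and for Stard4 0.25 to 0.27. The presence of a call at E16.5 and its absence at E15.5 is therefore not a tested difference between stages.

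The synthesis genes also varied together from array to array within groups. After subtracting each group's mean, the median Pearson correlation over the 153 pairs of the 18 enzymes was 0.37 across the 16 arrays, with 83.7% of pairs positive. Over the 91 pairs of the other 14 genes it was 0.08, over the 252 mixed pairs −0.03, and over all pairs of tested genes 0.000712. Without control E16.5 replicate 2 the 153 pairs had a median of 0.34. Cyp51 followed the mean of the other enzymes most closely (0.91), and Ggps1 (−0.11), Dhcr7 (−0.02) and Hsd17b7 (0.14) least. Hsd17b7 stood at 0.73 without control E16.5 replicate 2. Without that array Cyp51 (0.85) was again highest, and Sc5d (0.05), Msmo1 (0.17), Dhcr7 (0.19) and Ggps1 (0.20) were lowest. With all arrays Sc5d stood at 0.43 and Msmo1 at 0.54. These values describe genes that share the same 16 arrays and are given without a test.

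**Figure D5:**
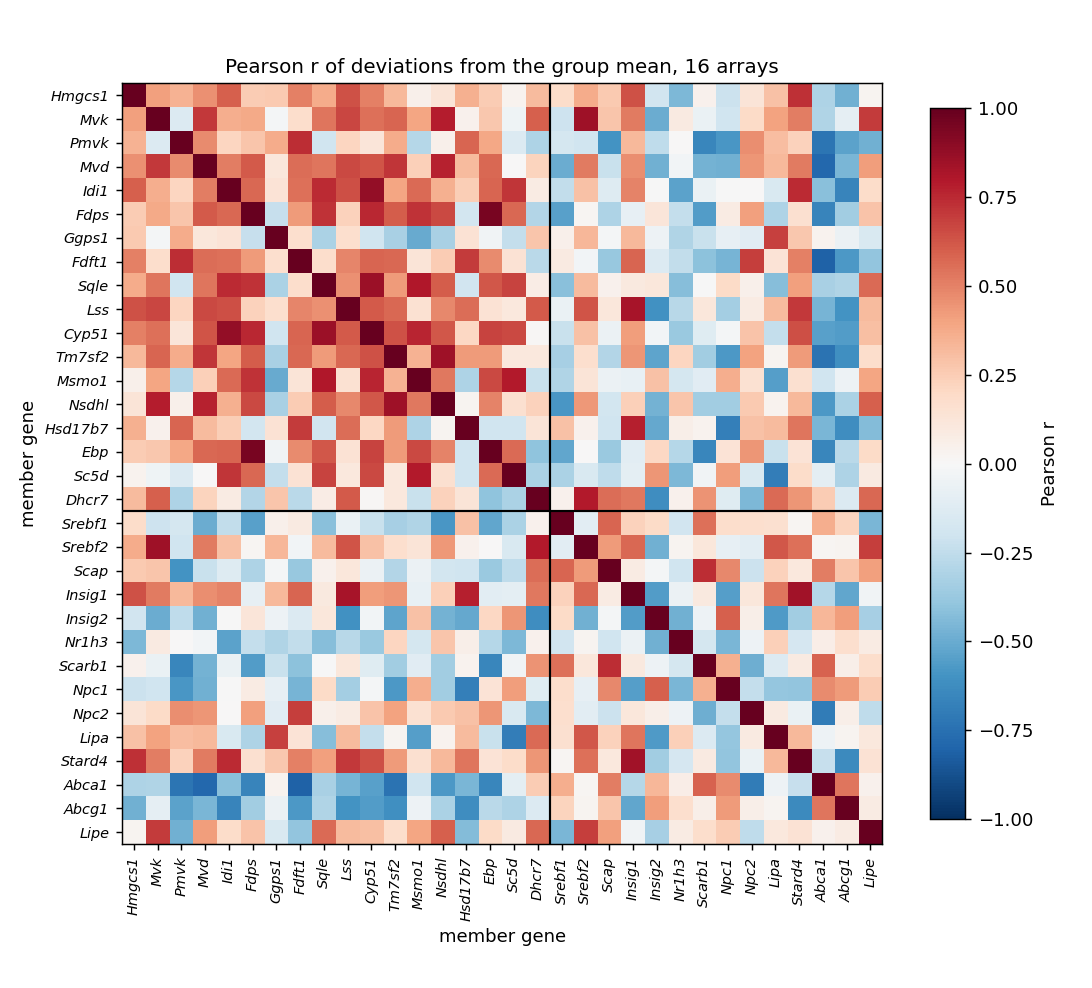
Pearson correlation (colour, −1 to 1) between each pair of the 32 genes over the 16 arrays after subtracting group means; the lines divide the 18 synthesis genes from the other 14. Most pairs among the synthesis genes are positive (median 0.37), and Abca1 and Abcg1 are mostly negative with them.

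By single pairs, the closest were Fdps with Ebp (0.949), Idi1 with Cyp51 (0.88) and Sqle with Cyp51 (0.855). Insig1, though not an enzyme, had its closest partners in Stard4 (0.836), Lss (0.824) and Hsd17b7 (0.78). Srebf2 paired most closely with Mvk (0.851). Abca1 gave the most negative pairs, with Fdft1 (−0.805) and Mvd (−0.787). Beside these stand other measures of the arrays. The within-group deviation of the synthesis mean had a correlation of 0.422 with that of the liver markers, 0.605 with erythroid markers, 0.413 with macrophage markers, 0.222 with cortex markers, 0.161 with chromaffin markers and −0.565 with the 3′ minus 5′ signal over the 16 arrays. Without control E16.5 replicate 2 these were 0.466, 0.665, 0.279, −0.112, −0.526 and −0.037. Their part in the shared variation was not tested.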

How the data were processed

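Pooled embryonic mouse adrenal glands were measured on 16 Affymetrix arrays, 4 in each of the groups KO E15.5, control E15.5, KO E16.5 and control E16.5. The deposited values are log2 signals that the authors made with RMA (background correction, quantile normalization and probe summary), per the submitters' processing notes, which name limma too. Versions are not stated there. RMA pulls array distributions together, so a change shared by most genes is reduced.

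Of 45101 probe sets, 34945 carried 1 gene symbol in the annotation given, 932 several and 9160 none, beside 64 control probe sets. Each gene was read from its probe set with the highest mean. Genes above the 40th percentile of signal on at least 4 arrays were kept, 13642 of 18193. A model of 4 group means was fitted to all arrays with limma 3.58.1 in R 4.3.3, with p-values adjusted by Benjamini-Hochberg over the 13642 genes and a threshold of 0.05. The script was tested on simulated data. The number of arrays limits the precision, and the median SE of a KO difference at E16.5 was 0.14.

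The labels say that pools came from separate litters but do not tie replicate numbers to litters. Values in every array are given for members that passed in a contrast and for Srebf2, Insig1, Sqle, Scarb1, Abca1 and Npc1, Soat1 being on the same list without a probe set, and at most 4 genes of each other list are named. A few more members (Nr1h3, Stard4) were given by array after their values were seen. The members and lists were chosen with earlier results of these data known. Alternatives were other scalings, filters, probe set rules, array quality weights, fits of the compared groups alone, a replicate block, an offset between genotypes and leaving out each array. Promoter and microRNA sequences are from RefSeq, build GRCm38.p6.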

Additional observations from a re-analysis of the deposited data

Results flagged for a closer look

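Within groups of 4 arrays, 7 of 128 values per gene and group stood far from the other 3 arrays, where chance flags about 1 in 20 groups, or 6.4 here. They fell in 6 genes, and none was in control E16.5 replicate 2, the array with the high 3′ minus 5′ signal. Fdps read 11.50 in control E15.5 replicate 4, below the 12.28 to 12.43 of the others. Sc5d read 9.44 in KO E16.5 replicate 2, below the others at 9.67. Dhcr7 read 12.69 in KO E16.5 replicate 1, above the 11.91 to 11.98 of the others. Srebf2 read 9.36 in KO E15.5 replicate 3, above 8.52 to 8.66. Nr1h3 read 5.20 in control E15.5 replicate 3, below 5.67 to 5.76. Npc2 read 11.93 in KO E15.5 replicate 3, below 12.11 to 12.15, and 12.18 in KO E16.5 replicate 1, below 12.31 to 12.33. The causes were not tested.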

How the results depend on the processing

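Numbers of members called are given for KO minus control at E15.5 and E16.5 and for E16.5 minus E15.5 in KO and control glands, which were 1, 7, 2 and 2. Quantile normalization gave 1, 6, 1 and 1, centring on the 75th percentile 1, 4, 2 and 1, no filter 2, 7, 2 and 2, a filter at the 60th percentile 1, 7, 2 and 1, the mean of all probe sets 3, 5, 1 and 0, and fits of the compared groups alone 1, 5, 0 and 0. Array quality weights, which ran between 0.193 and 10.4, both for control E16.5 arrays, gave 2, 17, 5 and 18. Each probe set tested on its own, added after the data were seen, gave 1, 7, 1 and 1 when the brightest probe set of each gene is counted, and an allowed genotype offset 1 and 6. Leaving out single arrays gave 0 to 1, 4 to 10, 0 to 2 and 0 to 4. The difference of KO effects gave 0 throughout. The causes were not tested.

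With a replicate block the counts were 1, 5, 1 and 3, and 0 for the difference of KO effects. The block ended the calls of Fdft1 and Insig2 at E16.5 and of Lipa over the day in KO glands, and added Cyp51 over the day in controls. Same-numbered arrays had correlations of their deviations of 0.25, 0.39, −0.03 and −0.39 at E15.5 and −0.20, 0.14, 0.25 and 0.45 at E16.5. With 4 pairs at each stage, these values cannot decide whether the numbers mark litters.

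Over the calls and the members named whatever they showed, which leaves out Nr1h3 and the E16.5 difference of Lipa, 302 alternative values kept direction and side of the threshold, 64 no longer passed, 2 newly passed and 6 moved, with differences near 0 that changed sign at E15.5 in Sqle, Insig1 and Abca1. The 10 called genes had 15 values from other probe sets, 14 of the same sign. Signal over background limits the dimmest member, Nr1h3.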
